A study of Mus musculus with 14 samples.

Results

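Paraspeckles are nuclear bodies built on a long noncoding RNA, and their parts were followed here in mouse stem cells treated with an inhibitor of the m6A writer METTL3. The set holds 6 genes of the 55416 in the count table: the architectural RNA Neat1, its genomic neighbour Malat1, and the protein genes Sfpq, Nono, Pspc1 and Rbm14. They were chosen by name as nuclear body RNAs and paraspeckle proteins, with the fitted line and treatment differences of these libraries already known, so their values are a description and their calls are no independent evidence. All 6 were found and all 6 passed the filter on low counts, among 18430 genes that did.

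The 14 RNA sequencing libraries came from 3 lines of a hybrid strain labelled Mus molossinus X Mus musculus. XEN, an extraembryonic endoderm stem cell line labelled WT, gave 3 libraries with DMSO, the solvent control, and 3 with STM2457 at 50 µM for 12 h. TSC, a trophoblast stem cell line also labelled WT, and EpiSC, an epiblast stem cell line whose genotype is XmolXmus-ΔTsix, each had 2 libraries per arm. XEN cells grew in DMEM with serum, TSC in RPMI conditioned by embryonic fibroblasts with Fgf4, and EpiSC in serum replacement medium with Fgf2 and Activin A. Line, genotype (for EpiSC) and medium change together and cannot be told apart. Each kind of cell is a single line, and the labels do not give separate cultures for the replicates. The p-values therefore reflect only how far these libraries spread, which may be technical.

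In paraspeckles, the long form of Neat1 is coated by proteins of the DBHS family, Sfpq, Nono and Pspc1, which bind RNA and pair with one another. Sfpq and Nono are needed for the long RNA to persist and for the body to form, Rbm14 joins the assembly through a prion-like domain, and Pspc1 marks the body without being essential to it. Malat1 resides instead in nuclear speckles, stores of splicing factors that often lie beside paraspeckles, and it is a well-known carrier of m6A. METTL3 places m6A on nuclear RNA while it is made, and the nuclear reader Ythdc1 binds it there.

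Neat1 and Malat1 share an unusual 3′ end, shown here because it can bear on how a library captures them. Their capture was not tested here. Neither long RNA ends in a poly(A) tail. RNase P cuts each of them, and a triple helix of 2 U-rich stretches with an A-rich stretch guards the end. Capitals below mark a motif within each stretch, and adjoining bases of a stretch can be in lower case. The sequences are from the longest transcript of each gene, 5′ to 3′ in DNA letters.
Malat1: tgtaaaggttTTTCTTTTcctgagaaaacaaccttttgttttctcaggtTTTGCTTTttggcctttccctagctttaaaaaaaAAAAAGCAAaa
Neat1: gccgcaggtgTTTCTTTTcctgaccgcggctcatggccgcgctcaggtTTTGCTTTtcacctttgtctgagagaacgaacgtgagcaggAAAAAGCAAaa
The Malat1 sequence shown covers bases 6598 to 6691 of a 6983-base transcript. The Neat1 sequence shown covers bases 20672 to 20771, the last of the transcript. The 3 motifs, TTTCTTTT, TTTGCTTT and AAAAAGCAA, were read from these ends. They occur in this order within 100 bases in 2 of 18247 longest transcripts of tested genes (0.011%), which are these 2, and in 0 on the opposite strand. Singly they occur in 26%, 15.9% and 4.67% of those transcripts.

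The common m6A motif GGACT was counted on the RNA strand of the same transcripts, because METTL3 is the enzyme inhibited. Neat1 holds 23 copies (1.11 per kb) and Malat1 9 (1.29 per kb), against a median of 1 per kb over all 18247 transcripts, of which 87.2% hold at least 1 copy. Among the protein genes, Nono holds 5 copies (1.95 per kb), Sfpq 3 (0.866), Rbm14 2 (0.57) and Pspc1 1 (0.243). Neat1 also has a short, polyadenylated form of 3004 bases that shares its 5′ end, and 6 of the 23 copies lie in it. Those 6 are shown with their surroundings, the motif in capitals and the name giving its first base in the transcript.
Neat1 347: ggagacgggtGGACTgggggccctt
Neat1 400: cagtggggcaGGACTaggtgcgtag
Neat1 515: tatggaaggtGGACTtagcttcgct
Neat1 738: tgccctctctGGACTttgcctaggt
Neat1 1788: gacgtcttctGGACTaaaagggatc
Neat1 2054: accagatatgGGACTtgtgggagaa
A motif match is no measured m6A site. The counts are per gene, so the short and long forms of Neat1 are summed in every value below.

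**Figure D1:**
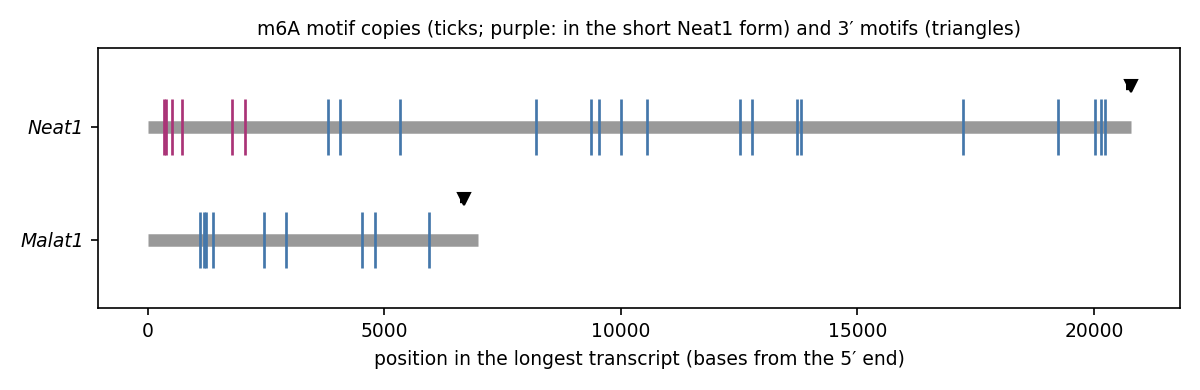
Copies of the m6A motif (vertical ticks) along the longest transcripts of Malat1 and Neat1, in bases from the 5′ end, with triangles over the 3′ motifs. Neat1 carries 23 copies, 6 of them (purple) in its short form, and Malat1 carries 9.

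The depth was 6826496 to 10024628 counts per library in XEN, against 17909934 to 20354242 for TSC and 18640099 to 21097380 for EpiSC. Each line carried its own markers. The 9 XEN markers summed to between 34200 and 43800 CPM (each count over its library's TMM-scaled total) in XEN, against 172 to 195 in TSC and 91.4 to 100 in EpiSC. The 7 TSC markers summed to between 1940 and 2050 CPM in TSC, 37.6 to 52.9 in XEN, where Esrrb and Tfap2c had 0 counts, and 194 to 219 in EpiSC. The 8 EpiSC markers summed to between 1100 and 1370 CPM in EpiSC, 133 to 175 in XEN, where Fgf5, Otx2, T and Nodal had 0 counts, and 258 to 283 in TSC, where Pou5f1 had 0. For 9 fibroblast markers the sums were 5 to 8.91 CPM in XEN, against 14.9 to 20.7 in TSC and 47.9 to 60.8 in EpiSC.

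Of the 6 genes, Neat1 showed the widest range between lines. In DMSO it stood at 1250, 2030 and 1900 CPM in the XEN libraries, at 180 and 166 in TSC and at 33.5 and 41.3 in EpiSC. No library of one line reached the range of another, and the order was XEN, TSC, EpiSC. By edgeR's quasi-likelihood test with Benjamini-Hochberg adjustment over all tested genes, Neat1 was 9.97-fold lower in TSC than in XEN (log2 −3.32 ± 0.205 SE, adjusted p = 7.3e-10). It was 46.1-fold lower in EpiSC than in XEN (log2 −5.53 ± 0.232, adjusted p = 7.5e-12) and 4.62-fold lower in EpiSC than in TSC (log2 −2.21 ± 0.206, adjusted p = 1.8e-07). The EpiSC values still rest on 675 and 875 reads. As these are bulk samples, fewer expressing cells and less RNA per cell cannot be told apart.

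Malat1 gave another order. It stood at 10500, 11300 and 18300 CPM in XEN, at 348 and 332 in TSC and at 364 and 321 in EpiSC, so XEN lay far above and the other lines overlapped. It was 39.4-fold lower in TSC than in XEN (log2 −5.30 ± 0.355, adjusted p = 3.4e-08) and 39.1-fold lower in EpiSC (log2 −5.29 ± 0.355, adjusted p = 3.57e-08). Between EpiSC and TSC the log2 difference was 0.01 (adjusted p = 1). Per kb of exon, Malat1 exceeded Neat1 23.5 ± 6.23-fold in XEN (mean ± SD, n = 3), 5.86 ± 0.148-fold in TSC (n = 2) and 27.7 ± 6.47-fold in EpiSC (n = 2).

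RNA classes that mostly lack a long poly(A) tail differed between the lines in the same direction as both RNAs. Mitochondrial rRNA took 12% to 16% of all counts in XEN, 0.0366% to 0.0452% in TSC and 0.0366% to 0.0505% in EpiSC. Replication-dependent histone genes, whose mRNAs end in a stem-loop, took 0.433% to 0.648% in XEN, 0.00296% to 0.00326% in TSC and 0.00508% to 0.00617% in EpiSC. The snRNA, scaRNA and snoRNA genes took 0.0884% to 0.116%, 0.00511% to 0.00558% and 0.00647% to 0.00729%. Malat1 itself took 0.813% to 1.6%, 0.0273% to 0.0373% and 0.0352% to 0.0393%. The labels name 1 stranded total RNA kit for all 14 libraries. The part of library composition in the differences of Malat1 and Neat1 between XEN and the other lines was not tested. Between TSC and EpiSC, the shares of Malat1 and mitochondrial rRNA overlapped, while those of Neat1 (higher in TSC) and of the histone and small RNA genes (higher in EpiSC) did not.

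**Figure D2:**
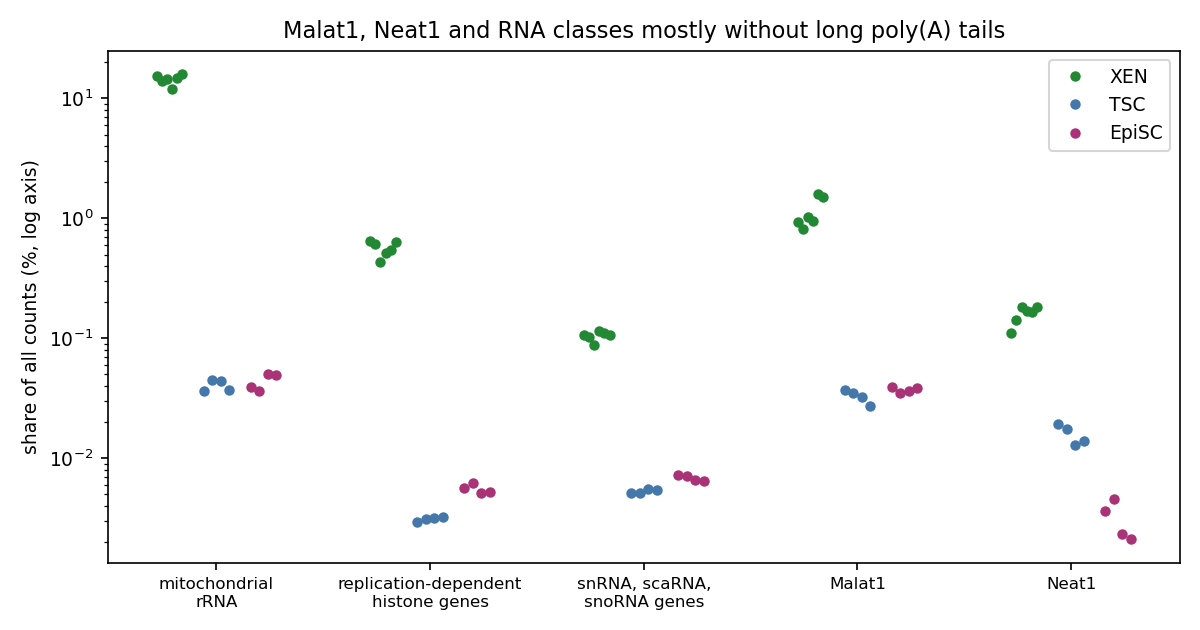
Share of all counts (percent, log axis) taken by mitochondrial rRNA, histone genes, small nuclear and nucleolar RNA genes, Malat1 and Neat1, with 1 point per library and colours for the lines. In all 5 columns every XEN library lies above every TSC and EpiSC library.

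Of the protein genes, Pspc1 had an order like that of Malat1. It stood at 92.3, 99.1 and 99.1 CPM in XEN, at 20.5 and 22 in TSC and at 22.6 and 20.2 in EpiSC, with TSC and EpiSC overlapping. This was 4.55-fold lower in TSC (log2 −2.18 ± 0.142, adjusted p = 6.34e-10) and 4.52-fold lower in EpiSC (adjusted p = 6.69e-10) than in XEN.

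Nono, which lies on the X chromosome, ran the other way. It stood at 209, 182 and 208 CPM in XEN, at 321 and 311 in TSC and at 734 and 659 in EpiSC, with no overlap. It was 3.49-fold higher in EpiSC than in XEN (log2 1.80 ± 0.0982, adjusted p = 6.71e-11), and its log2 difference was 1.14 ± 0.109 for EpiSC over TSC (adjusted p = 1.38e-07). For TSC over XEN the log2 difference was 0.66 ± 0.0983 (adjusted p = 1.36e-05) but turned to −0.43 (adjusted p = 0.00525) with scaling to ribosomal protein genes in place of TMM. With that scaling the median of all genes was −1.048 for TSC over XEN and −0.754 for EpiSC over XEN. With TMM it was 0 and 0.02.

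Sfpq varied least between lines among the DBHS genes. It stood at 257, 251 and 253 CPM in XEN, at 292 and 305 in TSC and at 388 and 415 in EpiSC. The log2 difference was 0.66 ± 0.11 for EpiSC over XEN (adjusted p = 4.26e-05), but −0.14 (adjusted p = 0.387) with scaling to ribosomal protein genes. For EpiSC over TSC it was 0.43 ± 0.121 (adjusted p = 0.00629), lost without the first TSC DMSO or the second EpiSC DMSO library (adjusted p = 0.054 and 0.0606). For TSC over XEN it was 0.24 ± 0.11 (adjusted p = 0.0649), and −0.87 with the ribosomal protein scaling.

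Rbm14 stood at 47.3, 67.2 and 74.8 CPM in XEN, at 51.7 and 46.7 in TSC and at 72.9 and 69.3 in EpiSC. It was higher in EpiSC than in TSC (log2 0.53 ± 0.167, adjusted p = 0.0126), a call lost without the second TSC DMSO or the first EpiSC DMSO library (adjusted p = 0.103 and 0.0701). The XEN libraries overlapped those of both other lines. The log2 value of −0.36 ± 0.157 for TSC over XEN (adjusted p = 0.0478) passed the threshold despite this overlap and missed it in 11 of the 14 fits that left out 1 library, with adjusted p up to 0.282.

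**Figure D3:**
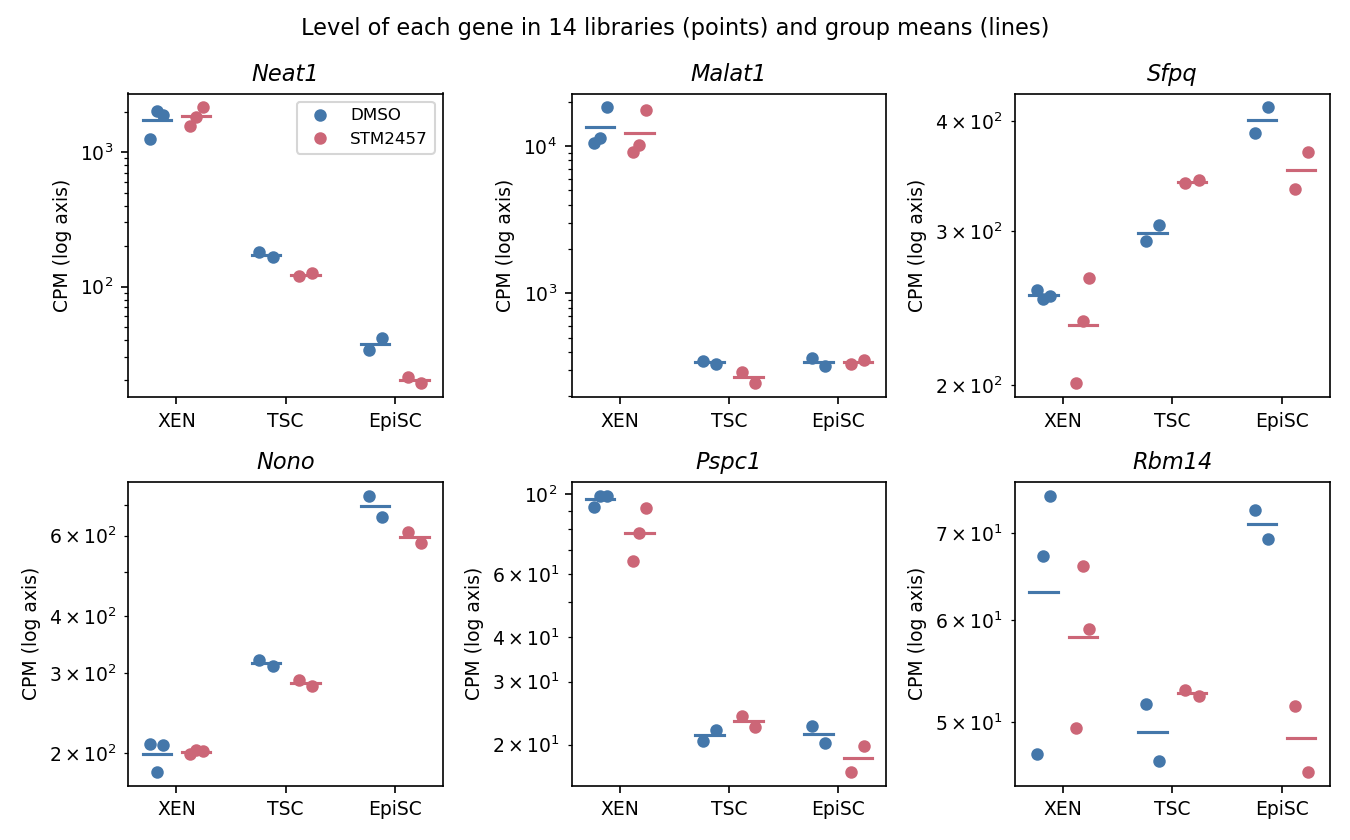
CPM (log axis, scaled separately in each panel) of the 6 genes in the 14 libraries, with points for libraries, lines for group means and colours for DMSO and STM2457. Neat1, Malat1 and Pspc1 are highest in XEN and Nono is highest in EpiSC.

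Counting over the set, 5 of the 6 genes differed between TSC and XEN (1 higher, 4 lower), 5 between EpiSC and XEN (2 higher, 3 lower) and 4 between EpiSC and TSC (3 higher, 1 lower), with the higher calls of Nono in TSC and Sfpq in EpiSC over XEN turning sign under ribosomal protein scaling. Of all tested genes, 72.5%, 71.7% and 54.4% differed in these comparisons, so most genes were called there. In the same order, 6725, 6750 and 5047 of them were higher and 6644, 6471 and 4971 lower.

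The make-up of the DBHS family differed between lines too. As shares of the summed CPM per kb, Sfpq, Nono and Pspc1 held 46.1%, 39.3% and 14.6% in XEN with DMSO, where Pspc1 ranged from 13.6% to 15.5%. In TSC they held 45.3%, 52% and 2.68%, and in EpiSC 34.3%, 64.2% and 1.51%. Shares within a library do not depend on how libraries are scaled to each other. In DMSO the Pspc1 shares of the 3 lines did not overlap, and neither did the Nono shares. Neat1 per kb, over the DBHS sum per kb, was 0.718 ± 0.189 in XEN, 0.0599 ± 0.00371 in TSC and 0.00729 ± 0.00132 in EpiSC, lowest in EpiSC. This ratio sets an RNA whose long form lacks a poly(A) tail against mRNAs. The classes that mostly lack such tails differed between the lines, and the part of library composition in the ratio was not tested. The Neat1 value is also divided by the full exon length, although its short form is summed in.

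**Figure D4:**
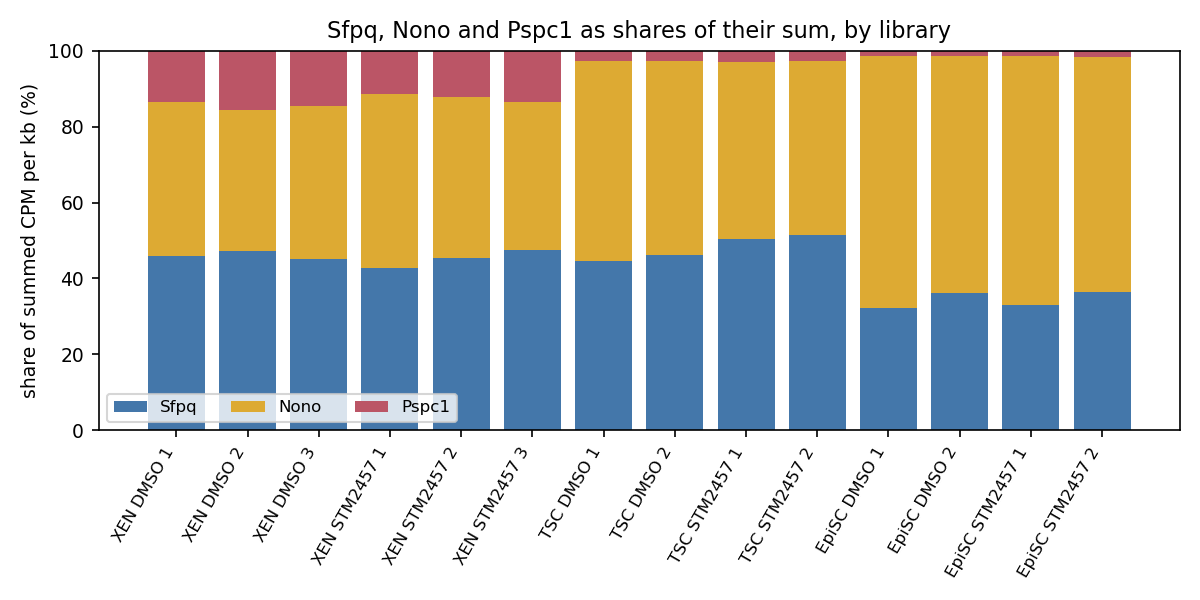
Sfpq, Nono and Pspc1 as shares (percent) of their summed CPM per kb of exon in each of the 14 libraries. Pspc1 takes 11.5% to 15.5% in the XEN libraries and at most 2.96% in the others, and Nono takes its largest shares in EpiSC.

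With STM2457, Neat1 fell in EpiSC. It went from 33.5 and 41.3 CPM in DMSO to 21.2 and 19 with STM2457, a fold of 0.537 (log2 −0.90 ± 0.206, adjusted p = 0.0391), and both treated libraries lay below both controls. With 2 libraries per arm a lack of overlap is weak evidence, here and below. The arms of every gene of the set were apart in TSC, and of every gene but Malat1 in EpiSC. The share of all tested genes that were apart likewise was not computed. Of all tested genes, 1.68% were called in EpiSC (235 higher and 74 lower), and of the 6 genes Neat1 alone. The call was lost in each of the 8 fits that left out 1 TSC or EpiSC library (adjusted p = 0.0618 to 0.358, log2 −1.04 to −0.74) and with scaling to ribosomal protein genes (log2 −0.77, adjusted p = 0.238). In the same libraries the 8 EpiSC markers summed to 1320 to 1370 CPM with DMSO and 1100 to 1200 with STM2457, and the fibroblast markers to 54 to 60.8 and 47.9 to 50.1. The EpiSC marker sum mostly followed Pou5f1 (728 ± 19.5 to 558 ± 55 CPM). Of the 8 EpiSC markers 4 were higher and 4 lower with STM2457, and 0 were called. Of 7 tested fibroblast markers 5 were higher and 2 lower, and 0 were called. Their part in the result was not tested.

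In TSC, Neat1 stood at 180 and 166 CPM with DMSO and at 119 and 126 with STM2457, again without overlap. The log2 difference of −0.49 ± 0.196 did not pass the threshold (adjusted p = 0.272). In XEN, Neat1 stood at 1250, 2030 and 1900 CPM with DMSO and at 1570, 1830 and 2160 with STM2457. Those groups overlapped, with a log2 difference of 0.10 ± 0.158 (adjusted p = 0.831), and within the numbered pairs it was higher in 2 and lower in 1.

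Averaged over the 3 lines, Neat1 fell by 0.43 ± 0.108 on the log2 scale (adjusted p = 0.0153), a comparison in which 13.4% of all genes and 1 of the 6 were called. This call was lost without the first TSC STM2457 library (adjusted p = 0.0527), the second EpiSC DMSO library (0.062) or the second EpiSC STM2457 library (0.0571), and with ribosomal protein scaling (log2 −0.37, adjusted p = 0.151). The test of the difference between lines gave −1.0 ± 0.26 for EpiSC minus XEN (adjusted p = 0.491), −0.60 ± 0.252 for TSC minus XEN (0.976) and −0.40 ± 0.283 for EpiSC minus TSC (1). None of the 6 genes passed in these 3 tests, in which 0.0109%, 0.00543% and 0.00543% of all genes did. At an unadjusted p under 0.05 stood 1, 2 and 2 of the 6, and DESeq2 called 0 in each.

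A model with the replicate number as a block within lines called more genes throughout. XEN numbers did pair the libraries, while those of TSC and EpiSC showed no shared deviation. With the block, Neat1 was called in EpiSC (log2 −0.89, adjusted p = 4.68e-05) and in TSC (−0.49, 0.00642), beside 13.2% and 11% of all genes. The mean over lines was −0.42 (2.41e-05), beside 25.6%. The difference between EpiSC and XEN in the Neat1 response was then called (log2 −1.02, adjusted p = 0.00123), as were 0.971% of all genes. For TSC minus XEN, where 0.304% of genes were called, none of the 6 was. With the block in XEN only, the line whose numbers pair, Neat1 was called there too (log2 −0.62, adjusted p = 0.0141), beside 0.95% of all genes. That model was added after seeing the data.

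Malat1 showed no called change in any line. In EpiSC it stood at 364 and 321 CPM with DMSO and at 329 and 351 with STM2457, with overlap and a log2 difference of −0.01 ± 0.303 (adjusted p = 1). In TSC it stood at 348 and 332 against 294 and 245, without overlap (log2 −0.33 ± 0.303, adjusted p = 0.707, and 0.0411 with the replicate block). In XEN it stood at 10500, 11300 and 18300 against 9050, 10100 and 17600, where the third pair was high in both arms. It was lower with STM2457 in all 3 numbered pairs, by 0.22, 0.16 and 0.06 on the log2 scale, and the fitted value was −0.13 ± 0.246 (adjusted p = 0.883). The mean over lines was −0.16 ± 0.165 (adjusted p = 0.641, and 0.037 with the block). Since Neat1 was lower in EpiSC and Malat1 was not, the ratio of Malat1 to Neat1 per kb there was 27.7 ± 6.47 with DMSO and 50.5 ± 6.06 with STM2457, without overlap.

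**Figure D5:**
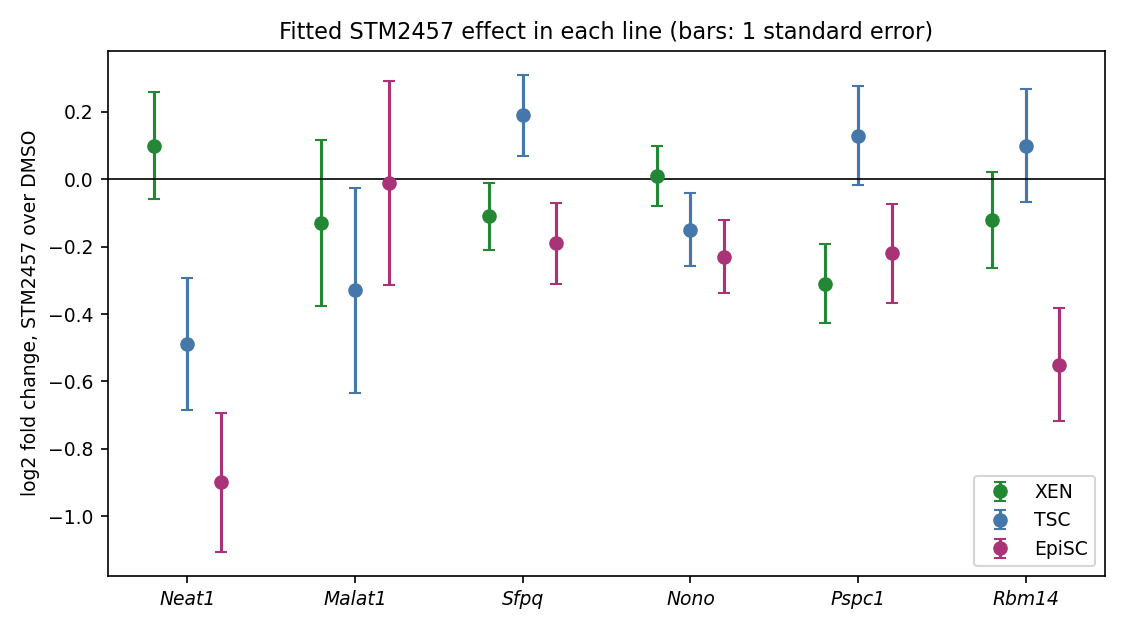
Fitted log2 fold change of STM2457 over DMSO for the 6 genes in each line, with bars of 1 standard error. The lowest value is Neat1 in EpiSC at −0.90, and the 6 EpiSC values are all below 0 (Malat1 turns to 0.12 with ribosomal protein scaling).

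Rbm14, the prion-like assembly factor, stood at 72.9 and 69.3 CPM in EpiSC with DMSO and at 51.5 and 45.8 with STM2457, without overlap. The log2 difference of −0.55 ± 0.167 did not pass the threshold (adjusted p = 0.114), but did with the block (0.000369). In TSC it stood at 51.7 and 46.7 against 53 and 52.4 (log2 0.10 ± 0.168, adjusted p = 0.889). In XEN it stood at 47.3, 67.2 and 74.8 against 49.5, 66 and 59, with overlap (log2 −0.12 ± 0.143, adjusted p = 0.753). The difference of the responses of EpiSC and TSC was −0.65 ± 0.236 (adjusted p = 1). With the block that difference was called (0.0199), beside 0.602% of all genes, and so was the mean over lines (−0.19, 0.0126).

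Pspc1 stood at 92.3, 99.1 and 99.1 CPM in XEN with DMSO and at 65.1, 77.9 and 91.7 with STM2457. All treated libraries lay below all controls, and the 3 numbered pairs differed by −0.50, −0.35 and −0.11 on the log2 scale. The fitted value of −0.31 ± 0.118 did not pass the threshold (adjusted p = 0.171) and did with the replicate block (−0.32, adjusted p = 0.0194), where 13.3% of genes were called. In TSC Pspc1 stood at 20.5 and 22 against 24.1 and 22.4 (log2 0.13 ± 0.147, adjusted p = 0.785), and in EpiSC at 22.6 and 20.2 against 16.8 and 19.9 (log2 −0.22 ± 0.148, adjusted p = 0.519).

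Sfpq stood at 257, 251 and 253 CPM in XEN with DMSO and at 201, 237 and 265 with STM2457, with overlap (log2 −0.11 ± 0.1, adjusted p = 0.639). In TSC it stood at 292 and 305 against 340 and 343 (log2 0.19 ± 0.121, adjusted p = 0.536), and in EpiSC at 388 and 415 against 335 and 369 (log2 −0.19 ± 0.121, adjusted p = 0.5). TSC and EpiSC thus showed opposite signs, each without overlap, which is weak evidence with 2 libraries per arm. The test of that difference gave −0.38 ± 0.171 (adjusted p = 1).

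Nono stood at 209, 182 and 208 CPM in XEN with DMSO and at 199, 203 and 202 with STM2457 (log2 0.01 ± 0.0898, adjusted p = 1). In TSC it stood at 321 and 311 against 289 and 281 (log2 −0.15 ± 0.108, adjusted p = 0.608), and in EpiSC at 734 and 659 against 611 and 579 (log2 −0.23 ± 0.108, adjusted p = 0.338). In TSC the Sfpq share of the DBHS sum was 45.3% ± 1.17 with DMSO and 51% ± 0.718 with STM2457, and the Nono share 52% ± 1.29 and 46.2% ± 0.593, without overlap in either. In EpiSC the shares of all 3 proteins overlapped between arms.

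Over the set, the median log2 difference with STM2457 was −0.12 in XEN, −0.02 in TSC, −0.23 in EpiSC and −0.15 for the mean over lines, where the median of all tested genes was 0. All 6 values were below 0 in EpiSC and in the mean over lines, although with ribosomal protein scaling Malat1 turned to 0.12 in EpiSC and Sfpq to 0.03 in the mean. In XEN 4 were below 0 and in TSC 3. None of the 6 was called in XEN or TSC, where 4.15% and 0.966% of all genes were. At an unadjusted p under 0.05 stood 1 gene in each, and DESeq2 also called 0 in each.

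Of 26 other paraspeckle protein genes, all tested, 0 were called in XEN, 1 higher in TSC and 1 lower in EpiSC, beside 4.15%, 0.966% and 1.68% of all genes. The gene that rose in TSC was Rbm4b, an RNA-binding protein gene (8.27 ± 0.453 to 15.4 ± 0.509 CPM, log2 0.90 ± 0.184, adjusted p = 0.0301), a call lost without any 1 of the TSC or EpiSC libraries (adjusted p = 0.0604 to 0.316). The gene that fell in EpiSC was Hnrnph1, a splicing regulator that binds G-rich RNA (521 ± 16 to 321 ± 10.2 CPM, log2 −0.70 ± 0.11, adjusted p = 0.00541), a call lost without any 1 of the EpiSC libraries (adjusted p = 0.0691 to 0.14). In XEN, an unadjusted p under 0.05 was found for 7 of the 26, while DESeq2 called 1 higher and 4 lower. For the mean over lines 2 rose and 4 fell, where 13.4% of all genes (2470) were called, with a list median of −0.09. Over all genes, DESeq2 called 3321 there and the replicate block 4722. The 4 falls became 7 with DESeq2 and 7 with the replicate block, and 2 to 6 when 1 library was left out. Hnrnph1 (−0.37 ± 0.0599, adjusted p = 7e-04) and Nudt21, a subunit of the 3′ end cleavage factor that chooses polyadenylation sites (−0.35 ± 0.0631, 0.00166), had the smallest p among the falls. Rbmx and Smarca4 also fell (−0.37 and −0.22), while Rbm7 (0.29 ± 0.0553, 0.00215) and Rbm4b (0.50 ± 0.0976, 0.00296) rose. With ribosomal protein scaling 1 of the 4 falls was called, that of Hnrnph1, which then missed the threshold in EpiSC (adjusted p = 0.0834).

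Nuclear speckle genes, 26 in all, gave 1 call in a single line. Of all genes, 4.15% were called in XEN, 0.966% in TSC and 1.68% in EpiSC. Ddx39b, an RNA helicase of mRNA export, fell in XEN from 101 ± 14.2 to 72.7 ± 2.68 CPM (log2 −0.48 ± 0.101, adjusted p = 0.0135). It missed the threshold without the third XEN DMSO library (adjusted p = 0.0669) or with XEN fitted alone (0.192). For the mean over lines Ddx39b (−0.32), Srsf11 (−0.24) and Srsf7 (−0.19) fell and the kinase gene Dyrk1a rose (0.19). The 3 falls became 10 with DESeq2 and 12 with the replicate block, and 1 to 11 when 1 library was left out. In that comparison 2470 of all genes (13.4%) were called in the main fit, 3321 with DESeq2 and 4722 (25.6%) with the block. Ribosomal protein scaling left 0 of Ddx39b, Srsf11, Srsf7 and Dyrk1a called for the mean, and Ddx39b in XEN then had an adjusted p of 0.0728. At an unadjusted p under 0.05 stood 7 speckle genes in TSC and 4 in EpiSC, and DESeq2 called 2 and 3. The list's median log2 difference was −0.11, −0.14 and −0.12 in XEN, TSC and EpiSC, and 20, 21 and 17 of its 26 values were below 0. The median of all tested genes was 0 in each line, and ribosomal protein scaling moved it to −0.047, 0.11 and 0.119. A change of scaling moves the list and all genes together, and the list medians with that scaling were not computed. The part of scaling in the list medians was not tested.

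Among 15 tested genes of Cajal, PML and histone locus bodies, 2 rose in XEN and none fell, where 4.15% of all genes were called. Coil, the scaffold of Cajal bodies, went from 24.2 ± 0.812 to 39 ± 1.88 CPM (log2 0.69 ± 0.0996, adjusted p = 0.00106). Daxx, a histone chaperone of PML bodies, went from 33.6 ± 1.04 to 46.3 ± 5.93 CPM (log2 0.47 ± 0.107, adjusted p = 0.0199). In TSC and EpiSC 0 were called, beside 0.966% and 1.68% of all genes, with 6 and 2 at an unadjusted p under 0.05 and DESeq2 calling 4 and 2. For the mean over lines 4 rose: Daxx (0.44), Coil (0.39), Pml (0.26) and Casp8ap2 (0.19). Over all genes, 2470 (13.4%) were called there, 3321 with DESeq2 and 4722 with the replicate block. Ribosomal protein scaling lost the calls of Pml and Casp8ap2, and that of Daxx in XEN (adjusted p = 0.294). With XEN fitted alone neither Coil (0.0854) nor Daxx (0.231) passed, and Daxx also missed without the first or second STM2457 or the third DMSO library of XEN (0.063, 0.0604 and 0.0617). The 4 rises became 6 with DESeq2, which also called 2 falls, 7 with the block, which called 3, and 2 to 5 when 1 library was left out.

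Other long noncoding RNAs were given by 18 tested genes. The share of all genes called between arms was 4.15% in XEN, 0.966% in TSC and 1.68% in EpiSC. With STM2457, Tug1 fell in XEN from 275 ± 29.3 to 186 ± 6.96 CPM (log2 −0.57 ± 0.0914, adjusted p = 0.00218) and Snhg3, a snoRNA host, rose from 27.6 ± 6.19 to 41.4 ± 6.66 CPM (log2 0.59 ± 0.15, adjusted p = 0.0354). In TSC and EpiSC 0 of the 18 were called, with 1 and 4 at an unadjusted p under 0.05 and DESeq2 calling 1 and 4. Between lines in DMSO, 12 of the 18 were lower and 4 higher in TSC than in XEN, 11 lower and 6 higher in EpiSC than in XEN, and 2 lower and 10 higher in EpiSC than in TSC. Of all tested genes, 72.5%, 71.7% and 54.4% were called in these comparisons, in either direction. In the same order, 6725, 6750 and 5047 of them were higher and 6644, 6471 and 4971 lower. The part of library composition in the differences of these long noncoding RNAs from XEN was not tested. Kcnq1ot1, a long nuclear RNA of an imprinted cluster, had 273 ± 56.9 CPM in XEN against 5.97 ± 1.49 in TSC and 19.9 ± 0.0109 in EpiSC, whereas H19 stood at 1.57 ± 0.23, 4650 ± 45.8 and 8.84 ± 0.426. Both were chosen as examples after their values were seen. With ribosomal protein scaling the calls of Tug1 and Snhg3 in XEN were lost (adjusted p = 0.0577 and 0.101), as they were with XEN fitted alone (0.134 and 0.262). Snhg3 also missed in 12 of the 14 fits without 1 library, with adjusted p up to 0.138.

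Of 4 genes for proteins that bind Malat1 or its m6A-dependent structures, Ythdc1, the nuclear m6A reader, rose in TSC from 108 ± 1.97 to 203 ± 6.87 CPM (log2 0.91 ± 0.113, adjusted p = 0.00126). It also rose in EpiSC from 107 ± 4.4 to 149 ± 4.36 CPM (log2 0.48 ± 0.113, adjusted p = 0.0416). For the mean over lines Ythdc1 (0.56) and Mettl16 (0.34), which binds the Malat1 triple helix, rose. Hnrnpc (−0.32) and Rbmx (−0.37), which bind RNA opened by m6A, fell, but neither fall was called with ribosomal protein scaling. With that scaling Ythdc1 missed the threshold in EpiSC (adjusted p = 0.0742), as it did without any 1 of the TSC or EpiSC libraries (0.0932 to 0.382). In TSC it missed without either DMSO library of that line (0.0657 and 0.0617). In XEN 0 were called, with 3 at an unadjusted p under 0.05, while DESeq2 called 2 higher and 1 lower. Of all genes, 4.15% were called in XEN, 0.966% in TSC, 1.68% in EpiSC and 13.4% in the mean.

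Across the 14 libraries, genes with the pattern most like each member were taken by Pearson's r of log2 CPM among 10478 candidates. The points share lines and library composition, so these values are descriptions. For Neat1 they were Fyco1 (0.995), Creb3l2 (0.994) and Aga (0.993), and for Malat1 St3gal6, Ctsl and Gkn2 (0.998 each). For Nono they were Lage3 (0.995), Rbm8a (0.994) and Bcas2 (0.993), and for Pspc1 Uggt1 (0.992), Nbas (0.992) and Mycbp2 (0.991). Sfpq gave Ccnb1ip1 (0.947), Fam207a (0.947) and Bcat2 (0.94), and Rbm14, which varied little, Ap1m1 (0.852), Med20 (0.82) and Fam193b (0.804). After centring each line, the nearest to Neat1 were Cenpa (0.938), Zfp41 (0.899) and Card6 (0.886), and to Malat1 Arrb1 (0.94), Golga4 (0.928) and Rgs17 (0.92).

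Among the members, Malat1 and Pspc1 followed each other over all libraries (r = 0.99), and Neat1 ran against Nono (r = −0.94). After centring each line, these values were 0.49 and 0.5. The closest centred pairs were Sfpq with Pspc1 (0.84) and Neat1 with Rbm14 (0.72), each over the same 14 libraries.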

How the data were processed

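The values deposited by the authors are raw counts: whole numbers for each gene and library, not normalized. Per the submitters' processing notes, FastQC, Trim Galore, STAR and featureCounts were used with build GRCm39; versions and the strand setting of counting are not given in the sources used here, and reads of overlapping antisense genes cannot be told apart. All 14 columns matched a labelled library.

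Names, exon lengths and transcript sequences came from GENCODE M21 (GRCm38), a build that differs from that of the counting, so no genome coordinates are given; 3333 of 55416 identifiers had no name there. All libraries were fitted in edgeR 4.0.16 (R 4.3.3) with 6 groups, TMM scaling, filterByExpr (minimum count 10, minimum total 15) and a robust quasi-likelihood F test. Calls needed an adjusted p (Benjamini-Hochberg, over 18430 genes, two-sided) under 0.05; each SE was derived from the log2 fold change and its F. CPM are TMM-scaled, and per kb values use exon length. The script was tested on simulated data.

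The members and lists were chosen with earlier results of these data known. Named genes are the 6 members, called list genes (up to 4 per list and comparison with the smallest p; beyond 4 the remaining called genes were added), and the 3 genes nearest in pattern with at least 5 CPM (prior count 2). Same-number correlations of deviations were 0.22, 0.376 and 0.337 in XEN, −0.003 in TSC and −0.012 in EpiSC, so numbers paired libraries in XEN only. Replicates differed beyond counting noise (chi-square per degree of freedom 2.18 to 24), so none was a duplicate. The alternatives comprised DESeq2 1.42.0, DESeq2 size factors and ribosomal protein scaling, no low-count filter, removal of mitochondrial and histone genes, single-line fits, a replicate block, and each library left out in turn; edgeR's newer quasi-likelihood method, a block in XEN only and the settings for list genes were added after seeing the data. Counts by parental allele were not analysed here.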

Additional observations from a re-analysis of the deposited data

How the results depend on the processing

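The 6 genes gave 1320 values under alternatives. Of 339 for called differences, 306 kept direction and call, 31 lost the call and 2 reversed; of 981 for uncalled ones, 915 stayed, 36 became called and 30 changed sign. Scaling to ribosomal protein genes called 0 members in EpiSC and 0 in the mean over lines, beside 128 and 1373 of all genes. It moved the median of all genes to 0.119 in EpiSC and 0.11 in TSC. It reversed Malat1 in EpiSC (0.12), Sfpq in the mean (0.03), Sfpq and Nono for TSC over XEN (−0.87 and −0.43), Sfpq and Rbm14 for EpiSC over XEN (−0.14 and −0.65), and the response differences of Nono for TSC minus XEN (0.02) and Sfpq for EpiSC minus XEN (0.12). Nono in XEN was −0.01 with DESeq2, −0.01 with DESeq2 size factors in edgeR and −0.04 with ribosomal protein scaling. DESeq2 called 2 members in the mean, beside 3321 of all genes (2470 in the main fit). Without the low-count filter 1 member was called in TSC, 2 in EpiSC, 2 in the mean and 1 for EpiSC minus XEN. Beside them stood 332, 585, 2561 and 66 of all genes. Lines fitted alone gave 3 in TSC (Neat1, Malat1, Sfpq) and 4 in EpiSC (Neat1, Sfpq, Nono, Rbm14). Those fits called 4378 and 4321 of all genes, so calls rose far beyond the members.

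With the replicate block, 1 member was called in XEN, 2 in TSC, 2 in EpiSC, 3 in the mean, 1 for EpiSC minus XEN and 1 for EpiSC minus TSC; among the treatment effects and response differences it changed no other call of a member, and it was not fitted for the differences between lines. The member counts with the block stood beside 13.3%, 11%, 13.2%, 25.6%, 0.971% and 0.602% of all genes. A block in XEN only, added after seeing the data because only those numbers pair, called 1, 2, 3 and 4, and 1 in each of the 3 response differences. Beside these stood 2909, 2830, 3175 and 5283 of all genes, and 175 (TSC minus XEN), 401 (EpiSC minus XEN) and 274 (EpiSC minus TSC). In TSC and EpiSC the samples share only a number.

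Leaving out each library gave 0 to 1 called members in XEN, 0 in TSC, 0 to 2 in EpiSC, 0 to 2 in the mean, 4 to 6 for TSC over XEN, 5 for EpiSC over XEN, 3 to 4 for EpiSC over TSC and 0 in the response differences; arms left with 1 library are assumed to vary like the others. Signs changed in XEN for Neat1 (−0.08 to 0.24), Malat1 (−0.48 to 0.17), Nono (−0.05 to 0.05) and Rbm14 (−0.29 to 0.02), and in EpiSC for Malat1 (−0.11 to 0.08). Between lines they changed for Malat1 (−0.08 to 0.10) and Pspc1 (−0.08 to 0.08) in EpiSC over TSC, and Rbm14 reached 0 from 0.31 in EpiSC over XEN. Among response differences they changed for Malat1 in TSC minus XEN (−0.50 to 0.15) and EpiSC minus XEN (−0.18 to 0.47), Sfpq (−0.18 to 0.02) and Pspc1 (−0.05 to 0.21) in EpiSC minus XEN, and Nono reached 0 from −0.16 in EpiSC minus TSC. The cause of these changes was not tested.

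Of 28 calls of list genes, 28 held with DESeq2 and 28 with the block, 11 with ribosomal protein scaling, and 13 whichever library was left out; none reversed. Of the 9 calls in single lines, 4 held and 5 were lost with the line fitted alone; the 5 are those in XEN (Ddx39b, Coil, Daxx, Tug1 and Snhg3). Having 2 libraries per arm in TSC and EpiSC limits what can be called. The calls also changed with how the spread was estimated. The main fit, which shares 1 spread per gene over all lines, called 178 genes in TSC and 309 in EpiSC. The same lines fitted alone called 4378 and 4321. Replicates differed more in XEN (chi-square per degree of freedom 9.29 to 24) than in TSC and EpiSC (2.18 to 4.98), and the part of this was not tested.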
